A study of Homo sapiens with 19 samples.

Results

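Matrix metalloproteinases (MMPs) and tissue inhibitors of metalloproteinases (TIMPs) were followed as a family of 10 genes in human liver organoids: MMP1, MMP2, MMP7, MMP9, MMP10, MMP14, MMP15, TIMP1, TIMP2 and TIMP3. The genes were chosen by name and matched by Ensembl identifier, and all 10 were found among the 32703 gene identifiers listed in all 19 count matrices. The organoids were grown from W01, an established human pluripotent stem cell line of wild-type genotype, and were read by droplet single-cell RNA sequencing of transcript 3′ ends. Untreated organoids kept on ultra-low attachment plates (ULA) were taken at day 21 (3 libraries) or day 34 (2 libraries). Orbital shaker (OS) organoids were taken at day 25 in 7 groups of 2 libraries each: without treatment, with TGFB1 (transforming growth factor beta 1, 10 ng/ml) or its control, with PA (500 µM) or its control, and with OA (500 µM) or its control. TGFB1 and PA were given for 5 days after 20 days of culture. PA and OA stand unexplained in the labels, and the length of OA treatment is not given beyond the general statement for OS organoids. Only the day 21 ULA organoids were dissociated without an additional wash and second round of trypsin. All groups share 1 cell line, and the labels do not say whether replicate libraries came from separate cultures, so p-values measure only the spread between these libraries, which may be technical.

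MMPs are zinc-dependent endopeptidases that are made as inactive precursors and cleave collagens, other matrix proteins and cell-surface proteins. MMP1 is an interstitial collagenase, MMP2 and MMP9 are the gelatinases, MMP10 is a stromelysin, MMP7 (matrilysin) is a small epithelial enzyme without the hemopexin domain, and MMP14 and MMP15 are anchored in the plasma membrane. TIMPs bind the active site of MMPs: TIMP1 and TIMP2 are secreted and soluble, TIMP3 is held in the matrix, and TIMP2 together with MMP14 takes part in the activation of pro-MMP2 at the cell surface. In liver fibrosis, matrix turnover by MMPs and its restraint by TIMPs are studied mainly in stellate cells, myofibroblasts and macrophages, and MMP7 is known from injured bile duct epithelium. The data here are transcript counts, and they carry no measure of protein, precursor processing or enzyme activity.

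Levels are given as CPM, the unique molecular identifiers (UMIs, tags that count captured transcript molecules) of a gene scaled to the UMIs of the 32703 shared genes. They were summed over a library's cells, each with 500 or more genes and a mitochondrial share of no more than 20%. Of 138053 barcodes, 120240 were kept. Libraries held 3089 to 12427 kept cells and 6880807 to 91184130 UMIs, with a median of 1310 to 14304 UMIs per cell. TGFB1 control replicate 1 (median 1310 UMIs) and PA control replicate 1 (1747) were the shallowest of their comparisons. No pair of libraries shared more than 32 barcodes. Cells with at least 1 UMI of EPCAM, an epithelial surface protein, and none of COL1A2 or COL3A1, fibrillar collagen genes of mesenchymal cells, were called EPCAM-positive. The reverse pattern was called COL1A2/COL3A1-positive. Cells with both made up 29.8% to 59.7% of a ULA library and 1.94% to 32.0% of an OS library, and they were left out of the class comparisons together with the cells that had neither. The 7 hepatocyte markers all had UMIs in every group. So did all gut epithelial, ductal and squamous markers. Detection alone therefore does not check the labelled liver identity. In day 34 ULA libraries the hepatocyte markers summed to 81.9 to 754.6 CPM and the squamous markers to 275.4 to 839.5 CPM. The blood cell genes PTPRC and CD14 had 0 to 13 UMIs per group over all kept cells.

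Positions are given in GRCh38 with GENCODE v44. MMP7 (chr11:102520508-102530750), MMP10 (chr11:102770502-102780628) and MMP1 (chr11:102789401-102798160) lie on the minus strand of chromosome 11. MMP2 (chr16:55389700-55506691) and MMP15 (chr16:58025754-58046901) share chromosome 16. MMP14 lies at chr14:22836560-22849041, MMP9 at chr20:46008908-46016561, TIMP1 at chrX:47582408-47586789, TIMP2 at chr17:78852977-78925387 and TIMP3 at chr22:32801705-32863041. TIMP1 and TIMP3 each sit within a synapsin gene on the opposite strand (SYN1 and SYN3), and CEP295NL lies within TIMP2 on the same strand. The counting rule for overlapping genes is not given in the sources used here, so the TIMP2 counts carry that uncertainty. The 250 bases before the RefSeq start (GRCh38.p14) are shown for 4 members, the epithelial MMP7 and MMP10 and the inhibitors TIMP1 and TIMP3, because their letters differ in kind: MMP7 (chr11:102530748-102530997, minus strand), MMP10 (chr11:102780629-102780878, minus strand), TIMP1 (chrX:47582186-47582435, plus strand) and TIMP3 (chr22:32801455-32801704, plus strand). The promoter table had entries for 6 of the 10 members. Capitals mark matches, on either strand, to the AP-1 motif, the TATA box and the GC box, whose letters are given after the sequences.
MMP7: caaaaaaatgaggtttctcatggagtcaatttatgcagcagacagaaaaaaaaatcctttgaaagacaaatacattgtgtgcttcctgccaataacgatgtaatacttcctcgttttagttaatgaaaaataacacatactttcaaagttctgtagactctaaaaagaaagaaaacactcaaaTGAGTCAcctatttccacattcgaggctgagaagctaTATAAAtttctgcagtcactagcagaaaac
MMP10: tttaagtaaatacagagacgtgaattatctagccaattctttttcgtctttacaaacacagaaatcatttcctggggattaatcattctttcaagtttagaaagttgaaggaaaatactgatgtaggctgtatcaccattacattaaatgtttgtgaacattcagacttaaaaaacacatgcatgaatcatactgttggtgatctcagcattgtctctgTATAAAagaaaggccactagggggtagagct
TIMP1: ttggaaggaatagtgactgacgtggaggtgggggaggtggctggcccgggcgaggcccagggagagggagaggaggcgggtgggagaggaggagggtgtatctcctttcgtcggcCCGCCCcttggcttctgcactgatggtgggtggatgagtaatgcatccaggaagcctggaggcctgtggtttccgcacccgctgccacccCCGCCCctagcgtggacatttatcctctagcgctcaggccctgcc
TIMP3: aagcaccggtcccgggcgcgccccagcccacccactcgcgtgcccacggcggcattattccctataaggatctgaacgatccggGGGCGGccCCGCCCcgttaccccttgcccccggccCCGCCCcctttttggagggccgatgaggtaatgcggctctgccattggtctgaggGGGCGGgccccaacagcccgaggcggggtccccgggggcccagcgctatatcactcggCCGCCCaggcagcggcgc

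MMP7 held TGAGTCA, an AP-1 motif, starting 67 bases before the start. It also held TATAAA, the TATA box, 30 bases before the start, and MMP10 held that box 31 bases before it. The GC box, GGGCGG, was in neither. TIMP1 held 2 GC boxes and TIMP3 held 5, and neither held TGAGTCA or TATAAA. MMP14 held 1 GC box and MMP15 held 5, and their sequences are not printed. The GC content was 33.6% for MMP7, 34.4% for MMP10, 64.8% for TIMP1 and 72.4% for TIMP3. It was 56.8% for MMP14 and 74.8% for MMP15, the highest of the members with an entry. MMP15 was higher in EPCAM-positive cells like MMP7 and MMP10, as given below, so the epithelial members did not all have a low GC content. Over 35116 RefSeq promoters of the same 250 bases, on both strands, 4.20% held TGAGTCA, 10.7% held TATAAA and 42.6% held GGGCGG. A match is a description of the letters and not of a bound site.

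The family divided between the epithelial and the mesenchymal class of cells. In OS organoids, MMP1, MMP7, MMP10 and MMP15 were higher in EPCAM-positive cells, and MMP2, MMP9, MMP14 and all 3 TIMPs were higher in COL1A2/COL3A1-positive cells. The comparison was made within libraries of 6 OS groups, with the library as a block and the class effects of the groups averaged. The OA group was left out of this fit because only 1 of its libraries held 50 cells of both classes. All 10 members passed the threshold (adjusted p under 0.05), where 65.0% of 17374 genes did (28.3% higher and 36.7% lower in the collagen class). Their median log2 difference was 1.11, against -0.08 over all genes tested, and 6 members were higher in the collagen class.

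MMP1 had 21.2 to 636 CPM in EPCAM-positive cells (median 265 over the 13 OS libraries with both classes) and 1.41 to 54.5 CPM in COL1A2/COL3A1-positive cells (median 14.2). The level was higher in EPCAM-positive cells in 13 of 13 libraries, with a log2 difference of -3.67 ± 0.25 (SE, adjusted p = 1.4e-10) for the collagen class. MMP7 had a median of 183 CPM in EPCAM-positive and 17.2 CPM in COL1A2/COL3A1-positive cells, a log2 difference of -2.90 ± 0.16 (adjusted p = 1.3e-11). MMP10, the stromelysin, was a low-count gene with medians of 11.6 and 1.96 CPM in the 2 classes and a log2 difference of -3.74 ± 0.19 (adjusted p = 3.4e-12). MMP15, a membrane-type enzyme, had medians of 61.6 and 7.19 CPM, a log2 difference of -2.95 ± 0.12 (adjusted p = 1.5e-13). All 4 of these genes were higher in EPCAM-positive cells in each of the 13 libraries.

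The gelatinase MMP2 had the largest class difference of the 10. It had 116 to 376 CPM in COL1A2/COL3A1-positive cells (median 281) and 0.620 to 99.9 CPM in EPCAM-positive cells (median 6.27), a log2 difference of 5.02 ± 0.10 (adjusted p = 4.0e-18). The other gelatinase, MMP9, had medians of 54.1 and 1.95 CPM and a log2 difference of 4.47 ± 0.13 (adjusted p = 7.5e-16). TIMP3, the matrix-bound inhibitor, had medians of 138 and 18.1 CPM, a log2 difference of 3.62 ± 0.09 (adjusted p = 6.4e-17). These 3 genes, and the membrane-anchored MMP14, were higher in the collagen class in 13 of 13 libraries.

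The remaining members were shared more evenly. MMP14 had medians of 187 CPM in COL1A2/COL3A1-positive and 82.4 CPM in EPCAM-positive cells (log2 difference 1.19 ± 0.07, adjusted p = 4.4e-11). TIMP1 had medians of 3348 and 1165 CPM (log2 difference 1.64 ± 0.07, adjusted p = 1.6e-13). TIMP2 had medians of 226 and 117 CPM (log2 difference 1.02 ± 0.06, adjusted p = 1.2e-11). For TIMP1 the order was reversed in PA control replicate 1, where EPCAM-positive cells had 1953 CPM and COL1A2/COL3A1-positive cells 1883 CPM. For TIMP2 it was reversed in OA replicate 1, with 276 CPM in EPCAM-positive and 110 CPM in COL1A2/COL3A1-positive cells.

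**Figure D1:**
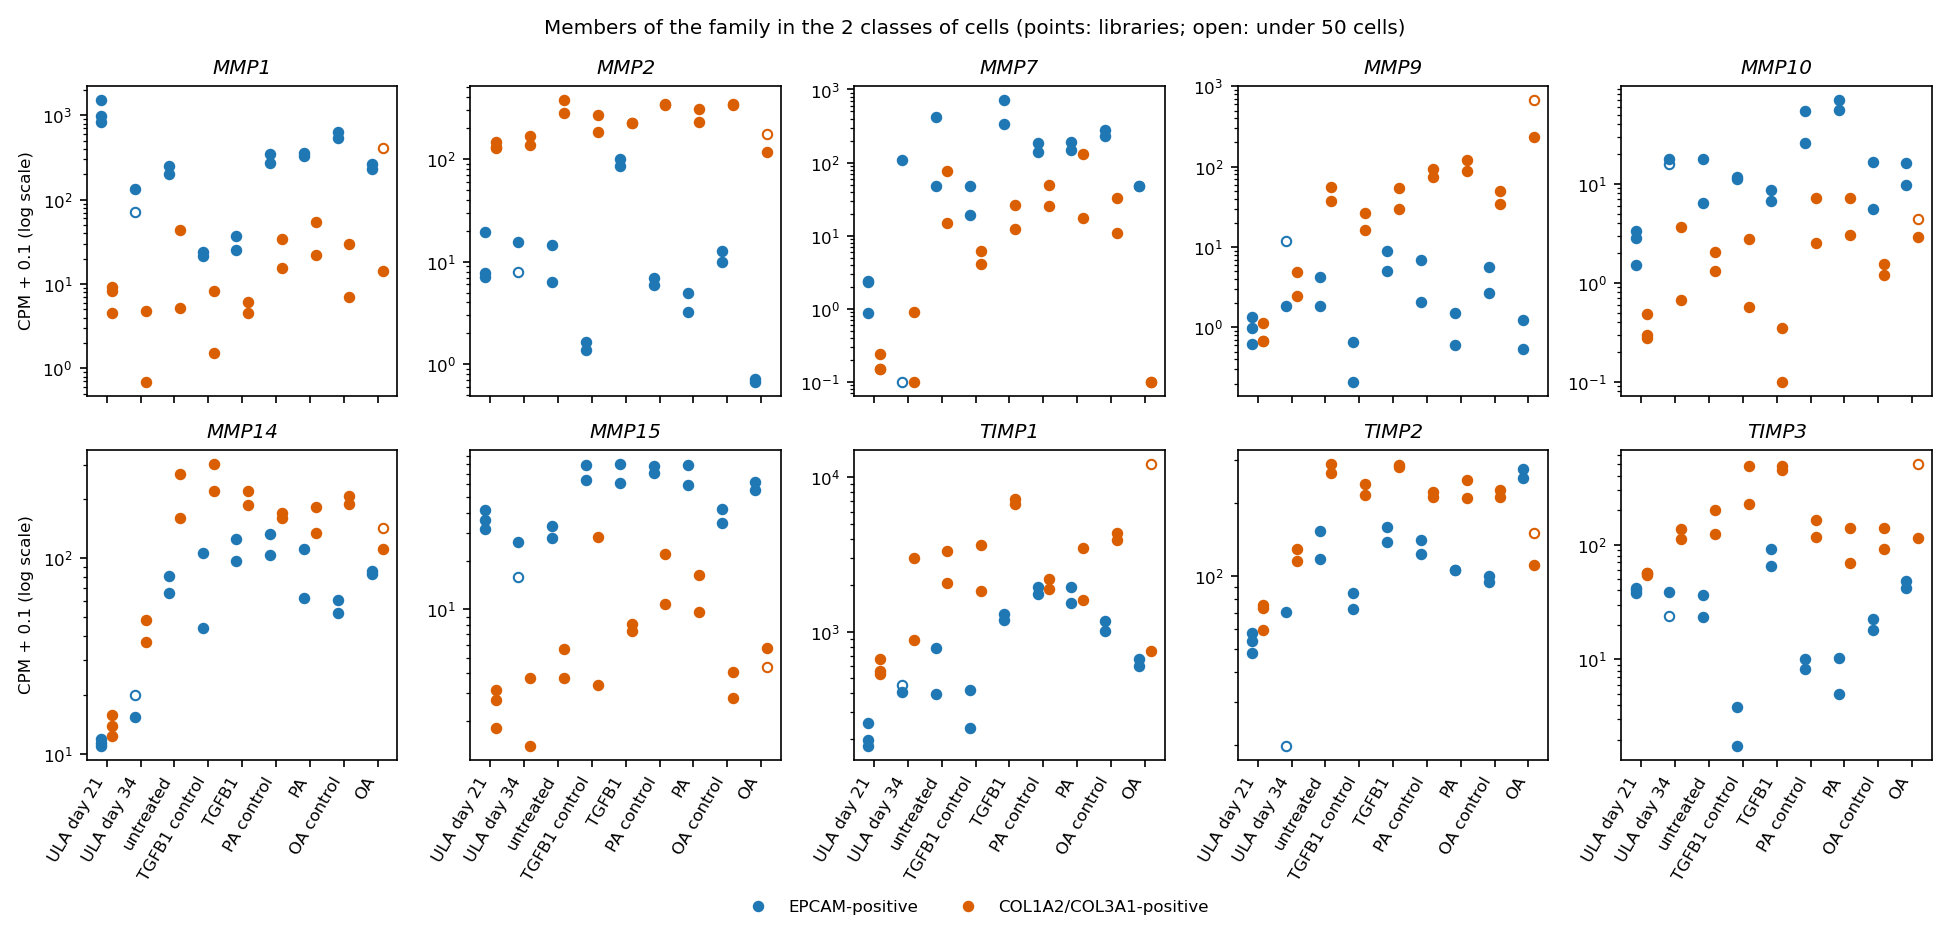
Level of each member, as CPM + 0.1 on a log axis, in EPCAM-positive (blue) and COL1A2/COL3A1-positive cells (orange) of every library, by group; open points are libraries with under 50 cells of that class. In libraries with 50 or more cells of both classes MMP1, MMP7, MMP10 and MMP15 lie higher in blue and MMP2 in orange. MMP1 lies higher in orange in OA replicate 2 (38 such cells), and the gap for MMP2 and TIMP3 is narrower with TGFB1 than in its control.

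The class difference was not of 1 size across the OS groups. For MMP2 the fitted class effect was 7.56 ± 0.31 on the log2 scale in the TGFB1 control and 1.41 ± 0.20 with TGFB1. For TIMP3 it was 7.09 ± 0.26 in the TGFB1 control against 2.74 ± 0.19 with TGFB1, and in the other 4 groups it lay between 2.28 ± 0.19 (untreated) and 3.67 ± 0.24 (PA control). For TIMP1 it was 3.06 ± 0.18 in the TGFB1 control, 2.10 ± 0.17 in untreated organoids, and did not pass the threshold in the PA control (0.00 ± 0.17, adjusted p = 0.996) or with PA (0.25 ± 0.17, adjusted p = 0.26). MMP9 ranged from 2.74 ± 0.23 with TGFB1 to 6.46 ± 0.29 with PA. The class effect of MMP1 did not pass in the TGFB1 control, nor did that of MMP14 in the PA control.

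In day 21 ULA organoids MMP1, MMP7, MMP10 and MMP15 were again higher in EPCAM-positive cells, and MMP2, TIMP1 and TIMP3 in COL1A2/COL3A1-positive cells. MMP1 had 996, 842 and 1519 CPM in EPCAM-positive cells of the 3 libraries and 8.07, 4.44 and 9.24 CPM in COL1A2/COL3A1-positive cells. That is a log2 difference of -7.51 ± 0.10 (adjusted p = 9.2e-19). Of the 10 members, 7 passed, where 72.8% of 17293 genes did (37.5% higher and 35.4% lower in the collagen class): MMP1, MMP7 (-4.52 ± 0.43), MMP10 (-3.46 ± 0.33) and MMP15 (-4.10 ± 0.13) were lower in the collagen class, and MMP2 (3.49 ± 0.20), TIMP1 (1.23 ± 0.07) and TIMP3 (0.25 ± 0.08) were higher in it. The MMP7 and MMP10 differences rest on few counts. Over the 3 libraries MMP7 had 96 UMIs in EPCAM-positive cells (0.783 to 2.26 CPM) and 6 UMIs in COL1A2/COL3A1-positive cells (0.0483 to 0.143 CPM). MMP10 had 152 UMIs (1.40 to 3.27 CPM) and 17 UMIs (0.179 to 0.387 CPM).

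MMP9, MMP14 and TIMP2 did not pass in day 21 ULA organoids. MMP9 had 0.522, 1.24 and 0.876 CPM in EPCAM-positive and 0.580, 1.04 and 0.587 CPM in COL1A2/COL3A1-positive cells (log2 difference -0.47 ± 0.32, adjusted p = 0.193). Under the stricter cell filter it passed (-1.25, adjusted p = 0.025). MMP14 had a log2 difference of 0.06 ± 0.11 (adjusted p = 0.636). TIMP2 (0.15 ± 0.07, adjusted p = 0.0724) passed with the stricter filter (0.24, adjusted p = 0.0416). The TIMP3 call was lost without day 21 replicate 1 (0.28, adjusted p = 0.0586) or replicate 2 (0.14, adjusted p = 0.111). Cells with both kinds of UMI made up 29.8% to 42.5% of the day 21 libraries. Day 34 was not fitted, since replicate 1 held 23 EPCAM-positive cells. When cells with both kinds of UMI were classed by the greater count, 121 and 2138 EPCAM-positive cells of day 34 entered the fit too, so that the class rule and the days in the fit changed together. In that fit of both days MMP9 (0.74, adjusted p = 0.0489), MMP14 (0.48, adjusted p = 9.5e-04) and TIMP2 (0.39, adjusted p = 0.00505) passed, and these values do not describe day 21 alone.

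Within the OS libraries, the cells that carried a UMI of an MMP were compared with the other cells by summed marker CPM, as a description. Cells with an MMP1 UMI (14528 cells) were higher in the gut epithelial markers CDX2, CDH17, VIL1 and TFF3 in 14 of 14 libraries, with a median of 1512 against 431.5 summed CPM. The hepatocyte list was higher in these MMP1-positive cells in 11 of 14 libraries (12430 against 10120). Their ductal list was higher in 0 of 14 (565.8 against 795), though KRT7 was higher in 12 of 14 (179.2 against 142.8 CPM). Cells with an MMP7 UMI (12363 cells) were higher in the ductal markers KRT7, SOX9, CFTR and SPP1 in 14 of 14 libraries (1084 against 669.9), and were lower in the gut epithelial list in 12 of 14. They were also higher in the epithelial list in 14 of 14 libraries (7992 against 5855) and in the hepatocyte list in 12 of 14 (15470 against 9538). Cells with an MMP10 UMI (4205 cells) were higher in MMP1 in 14 of 14 libraries (median 551.4 against 206 CPM) and in MMP7 in 13 of 14 (328.3 against 107.1 CPM). The blood cell list was higher in MMP10-positive cells in 14 of 14 libraries (543.8 against 259.6) and in MMP1-positive cells in 12 of 14 (483 against 218.1). Of its defining markers, PTPRC and CD14 had 1 UMI each in MMP10-positive cells and 4 and 2 UMIs in MMP1-positive cells. CD68 gave 1749 of the list's 29286 UMIs in MMP10-positive and 8876 of 119985 in MMP1-positive cells. The epithelial list was higher in MMP1-positive cells in 14 of 14 libraries (7812 against 5522) and in MMP10-positive cells in 13 of 14 (8284 against 6068).

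Cells with a UMI of a gelatinase differed in another list. Cells with an MMP2 UMI (14899 cells) were higher in the mesenchymal markers in 14 of 14 libraries (4954 against 472.4 summed CPM). Cells with an MMP9 UMI (2941 cells, compared in 13 libraries) were higher in the same markers in 13 of 13 (5962 against 978.7) and lower in the blood cell markers in 13 of 13 (117 against 292.2). That list summed to 39.0 to 803.4 CPM in EPCAM-positive cells of the OS groups and to 2.26 to 167.2 CPM in COL1A2/COL3A1-positive cells, and the part of this class difference in the result was not tested. The MMP9-positive cells held 4 UMIs of PTPRC and 0 UMIs of CD14. The neutrophil markers MPO, ELANE and S100A8 were higher in MMP9-positive cells in 7 of 13 libraries (median 64.49 against 45.28 summed CPM). All of this sum was S100A8, since MPO and ELANE were at 0 UMIs in all OS groups. The squamous markers were higher in MMP2-positive cells in 12 of 14 libraries (45.85 against 26.84 summed CPM). The MMP9-positive cells were also higher in the squamous markers in 11 of 13 libraries (131.3 against 35.31 summed CPM) and in KRT7, a keratin of ductal cells, in 11 of 13 (335.3 against 164.4 CPM). The whole ductal list was higher in the MMP9-positive cells in only 6 of 13 libraries (750 against 729.2 summed CPM). These MMP9-positive cells were higher in the epithelial list in 4 of 13 libraries (6210 against 6252) and in EPCAM in 0 of 13 (517.3 against 742.1 CPM). They were higher in GABRP, a subunit of a chloride channel, in 13 of 13 libraries (102.1 against 4.898 CPM) and in S100A9 in 13 of 13 (127.7 against 13.89 CPM); these genes were chosen after their values were seen. Cells with a UMI of a gene are partly chosen by their depth, and the cells of a library are not replicates.

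**Figure D2:**
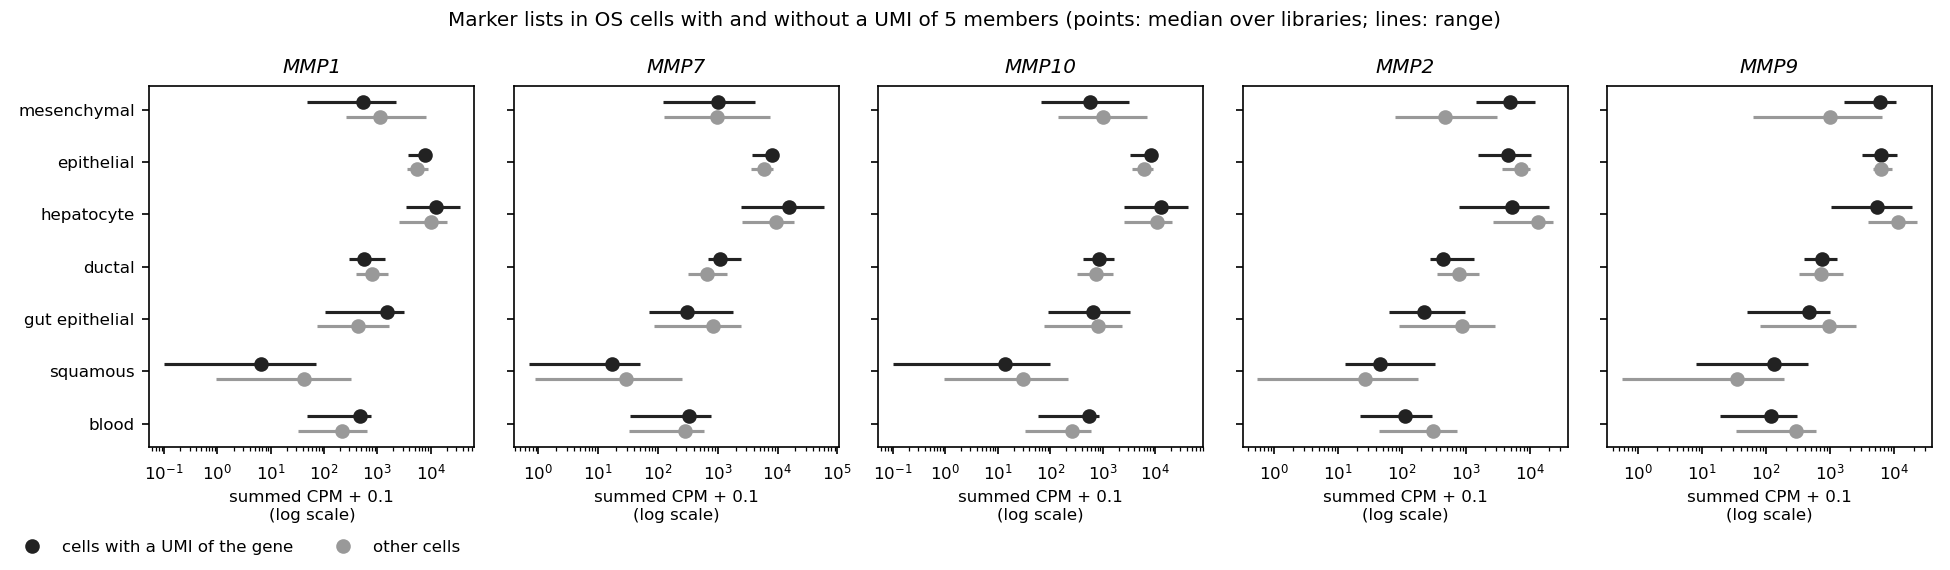
Summed CPM + 0.1 (log axis) of 7 marker lists in OS cells with (black) and without (grey) a UMI of MMP1, MMP7, MMP10, MMP2 or MMP9; points are medians over libraries and lines the range. The gut epithelial list is higher with MMP1, the ductal list with MMP7, and the mesenchymal list with MMP2 and MMP9.

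TGFB1 raised 6 of the 10 members in whole libraries: MMP2, MMP7, MMP9 and all 3 TIMPs. No member passed as lower. MMP1, MMP10, MMP14 and MMP15 did not pass. Of 19366 genes tested, 22.2% passed in either direction and 10.9% were higher. The median log2 fold change of the members was 1.71, against -0.05 over all genes tested. In whole-library sums, a change in the number of cells of a type and a change in RNA per cell cannot be told apart.

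MMP2 had 12.0 and 15.4 CPM in the controls and 105 and 118 CPM with TGFB1, a log2 fold change of 3.20 ± 0.33 (SE, adjusted p = 3.0e-05). MMP7 had 17.7 and 45 CPM in the controls and 617 and 296 CPM with TGFB1, a log2 fold change of 4.01 ± 0.72 (adjusted p = 0.00171). MMP9 had 1.33 and 2.10 CPM against 12.7 and 7.83 CPM (2.68 ± 0.60, adjusted p = 0.00683). For all 3 genes both treated libraries lay above both controls, and MMP7 varied most between replicates. The MMP9 call was lost without TGFB1 control replicate 1 (2.39, adjusted p = 0.0658) or TGFB1 replicate 1 (2.29, adjusted p = 0.0557).

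Among the inhibitors, TIMP1 had 326 and 590 CPM in the controls and 1999 and 1913 CPM with TGFB1 (log2 fold change 2.26 ± 0.39, adjusted p = 0.00119). TIMP2 rose less, from 86.8 and 81.6 CPM to 153 and 173 CPM (1.15 ± 0.18, adjusted p = 6.8e-04). TIMP3 rose from 16.5 and 27.3 CPM to 140 and 116 CPM (2.71 ± 0.44, adjusted p = 8.5e-04). The groups did not overlap for any of the 3, and their calls held when each of the 4 libraries was left out in turn, as did those of MMP2 and MMP7.

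The 4 members that did not pass were the collagenase MMP1 (17.6 and 19.6 CPM against 24.4 and 32.5 CPM, log2 fold change 0.80 ± 0.33, adjusted p = 0.0965), the stromelysin MMP10 (9.36 and 11.1 CPM against 7.59 and 5.33 CPM, -0.48 ± 0.34, adjusted p = 0.329) and both membrane-type enzymes, MMP14 (0.82 ± 0.31, adjusted p = 0.0753) and MMP15 (0.06 ± 0.27, adjusted p = 0.904). Both TGFB1 libraries lay above both controls for MMP1 and below both for MMP10. MMP14 had 114 and 52.5 CPM in the controls and 112 and 136 CPM with TGFB1, so the groups overlapped through the shallow control replicate 1. Without that library MMP14 passed (1.33, adjusted p = 0.0213). Without a filter on low counts MMP14 (0.84, adjusted p = 0.00766) and MMP1 (0.82, adjusted p = 0.0173) passed.

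The mesenchymal markers moved in the same direction as these genes. COL1A2/COL3A1-positive cells made up 4.24% ± 0.460 of control cells and 9.05% ± 0.716 of TGFB1 cells (SD, n = 2 each; exact permutation test, two-sided p = 0.33, the smallest that 2 against 2 allows). The 10 mesenchymal markers summed to 729.6 to 812 CPM in the controls and 2484 to 2648 CPM with TGFB1. Of these 10 markers, 5 passed as higher.

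Within EPCAM-positive cells the same 6 members rose with TGFB1, where 25.0% of 17526 genes passed and 12.3% were higher. Cells left out for holding both EPCAM and collagen UMIs made up 1.93% and 5.24% of the control libraries and 15.8% and 8.65% of those with TGFB1. MMP2 had 1.56 and 1.27 CPM in the controls and 85.6 and 99.9 CPM with TGFB1, a log2 fold change of 6.26 ± 0.35 (adjusted p = 3.5e-07). TIMP3 had 1.67 and 3.75 CPM against 90.9 and 64.6 CPM (4.85 ± 0.42, adjusted p = 4.2e-06). MMP7 had 18.9 and 48 CPM against 716 and 335 CPM (4.11 ± 0.75, adjusted p = 0.00128). In the shallow control replicate 1 these levels rest on 14 MMP2 UMIs and 15 TIMP3 UMIs. The treated libraries lay above both controls for all 3 genes.

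The other 3 called members followed the same order. MMP9 had 0.111 and 0.567 CPM (1 and 26 UMIs) in EPCAM-positive control cells and 8.73 and 4.91 CPM (276 and 146 UMIs) with TGFB1 (log2 fold change 4.06 ± 0.77, adjusted p = 0.0018). TIMP1 had 236 and 416 CPM against 1309 and 1181 CPM (2.10 ± 0.35, adjusted p = 7.2e-04). TIMP2 had 85.0 and 72.9 CPM against 138 and 158 CPM (1.11 ± 0.20, adjusted p = 0.00114). Other markers moved in these cells along with the members. The gut epithelial markers fell in 4 of 4 (summed 400.9 to 451.6 CPM in the controls and 87.2 to 110 CPM with TGFB1), and 3 of 5 tested epithelial markers rose. Of 7 hepatocyte markers 4 fell and 1 rose, while their sum was 2766 to 4106 CPM in the controls and 5239 to 6165 CPM with TGFB1. The squamous markers summed to 0.111 to 0.393 CPM in the controls and 12.3 to 13.9 CPM with TGFB1. The blood cell list summed to 213.6 to 248.9 CPM and 39.0 to 48.9 CPM. The part of all these markers in the result was not tested. All 6 calls held without any 1 of the 4 libraries and under the other settings tried. MMP10 had 11.01 and 11.63 CPM in the controls and 8.66 and 6.55 CPM with TGFB1, groups that do not overlap, and did not pass (-0.39 ± 0.46, adjusted p = 0.567). MMP14 did not pass (0.81 ± 0.33, adjusted p = 0.0921) except without TGFB1 control replicate 1 (1.43, adjusted p = 0.0131) or a filter on low counts (0.86, adjusted p = 0.00723).

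The share of cells with a UMI is given as a description. EPCAM-positive cells had medians of 1553 and 5746.5 UMIs in the controls and 7340 and 5173.5 with TGFB1. After thinning each cell to 1000 UMIs, 8.0% and 9.12% of EPCAM-positive cells carried an MMP2 UMI with TGFB1, against 0.135% and 0.124% in the controls. For MMP7 the shares were 27.7% and 16.6% against 1.43% and 3.03%, and for TIMP3 7.24% and 6.57% against 0.162% and 0.290%. Before thinning, MMP2 was found in 41.2% and 37.2% against 0.299% and 0.739% of these cells. Thinning left out 976 of 4690 EPCAM-positive cells in control replicate 1 and 22 to 75 cells in the other 3 libraries. COL1A2/COL3A1-positive cells, thinned likewise, carried an MMP2 UMI in 18.9% and 17.2% with TGFB1 and 11.5% and 21.5% in the controls. They carried an MMP7 UMI in 3.06% and 0.939% with TGFB1 and in 0.329% and 0.322% in the controls. Free RNA can also give a cell a UMI, and its part in these shares was not tested.

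Mesenchymal markers were also higher in the EPCAM-positive cells with TGFB1. They summed to 80.2 to 117 CPM in the controls and 969 to 1116 CPM with TGFB1, with COL1A2 and COL3A1 at 0 by the choice of cells. Of the 8 others, 2 passed as higher and 0 as lower, with a median log2 fold change of 0.98. COL1A1, a chain of type I collagen, rose from 25.4 ± 11.5 to 376 ± 40.4 CPM (SD, n = 2), and TAGLN, an actin-binding protein of contractile cells, from 65.6 ± 41.5 to 658 ± 144 CPM. The 6 that did not pass were LUM (1.22, adjusted p = 0.167), POSTN (1.11, adjusted p = 0.196), PDGFRA (0.85, adjusted p = 0.239), COL6A3 (0.48, adjusted p = 0.514), PDGFRB (-0.56, adjusted p = 0.537) and DCN (-2.44, adjusted p = 0.159). The part of these markers in the members' changes was not tested.

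Within COL1A2/COL3A1-positive cells no member passed, and 0.0212% of 14176 genes did (0.0141% higher and 0.00705% lower; 1893 genes and 3 members at an unadjusted p under 0.05). This class held 333 to 660 cells per library. MMP2 had 186 and 269 CPM in the controls and 223 and 226 CPM with TGFB1 (log2 fold change 0.21 ± 0.30, adjusted p = 0.787). TIMP1 had 1842 and 3626 CPM against 7251 and 6710.3 CPM (1.56 ± 0.43, adjusted p = 0.2), so its treated libraries lay above both controls without passing. TIMP3 had 227 and 485 CPM against 487 and 451 CPM (0.59 ± 0.41, adjusted p = 0.533). Without TGFB1 control replicate 2, TIMP1 (2.39, adjusted p = 0.00824) and TIMP3 (1.51, adjusted p = 0.0422) passed. Without a filter on low counts 3 members passed: MMP7 (2.01, adjusted p = 5.8e-04), MMP9 (1.11, adjusted p = 0.048) and TIMP1 (1.57, adjusted p = 2.9e-04).

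The difference of the TGFB1 effect between the classes was tested directly. It passed for 4 members, where 6.16% of 17374 genes passed (2.51% with a larger and 3.65% with a smaller effect in the collagen class than in EPCAM-positive cells), and in each the effect was smaller in COL1A2/COL3A1-positive cells. The difference on the log2 scale was -6.16 ± 0.36 for MMP2 (adjusted p = 1.4e-08), -4.35 ± 0.30 for TIMP3 (adjusted p = 7.1e-08), -3.02 ± 0.49 for MMP9 (adjusted p = 6.1e-04) and -0.95 ± 0.25 for MMP14 (adjusted p = 0.0291). For TIMP1 it was -0.44 ± 0.23 (adjusted p = 0.342), for TIMP2 -0.50 ± 0.20 (adjusted p = 0.177) and for MMP7 -1.89 ± 0.95 (adjusted p = 0.316; 9.0e-04 without a filter on low counts). With TGFB1 the EPCAM-positive level of MMP2 reached 85.6 to 99.9 CPM, still below the 223 to 226 CPM of the collagen class.

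**Figure D3:**
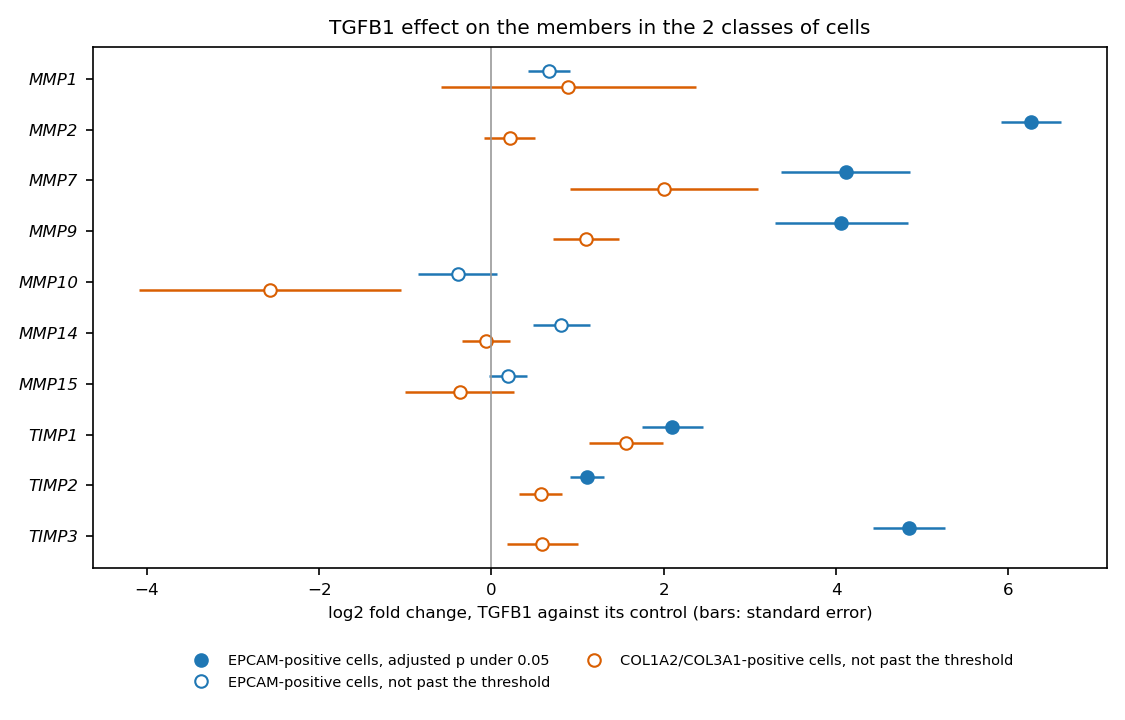
Log2 fold change of each member with TGFB1 against its control, with its standard error, in EPCAM-positive cells (blue) and COL1A2/COL3A1-positive cells (orange); filled points passed an adjusted p of 0.05. MMP2 stands at 6.26 in EPCAM-positive and 0.21 in COL1A2/COL3A1-positive cells, and TIMP3 at 4.85 and 0.59.

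No change of any member passed with PA in whole libraries. Of 19366 genes in whole libraries, 9 passed (0.0465%), all higher, with 540 genes and 0 members at an unadjusted p under 0.05. MMP10 had 25.4 and 49.4 CPM in the controls and 52.1 and 62.7 CPM with PA (log2 fold change 0.67 ± 0.33, adjusted p = 1). MMP2 had 28.5 and 40.5 CPM against 15.0 and 26.9 CPM (-0.66 ± 0.31, adjusted p = 1). The groups did not overlap for these genes, and neither difference passed the test. TIMP1 (-0.02 ± 0.37) and MMP15 (-0.04 ± 0.27) had the fold changes nearest to 0.

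Neither class showed a member past the threshold with PA by edgeR with the filter on low counts. In EPCAM-positive cells 0.103% of 17526 genes passed (435 genes and 1 member at an unadjusted p under 0.05), and in COL1A2/COL3A1-positive cells 0.00% of 14176 did (581 genes and 0 members at an unadjusted p under 0.05). MMP9 in EPCAM-positive cells had 6.73 and 1.95 CPM in the controls and 0.499 and 1.43 CPM with PA (log2 fold change -1.78 ± 0.74, adjusted p = 1), and this passed only without a filter on low counts (-1.74, adjusted p = 0.00645). The difference of the PA effect between the classes passed for 0.00% of 17374 genes (655 genes and 1 member at an unadjusted p under 0.05), and was 1.80 ± 0.41 for MMP9 (adjusted p = 0.603; 1.1e-04 without a filter on low counts). MMP7 in COL1A2/COL3A1-positive cells (1.33 ± 0.84, adjusted p = 1) also passed only without that filter (1.32, adjusted p = 0.0234). COL1A2/COL3A1-positive cells made up 8.60% ± 2.05 of control cells and 5.87% ± 0.885 of PA cells.

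OA changed 5 of the 10 members in whole libraries, with MMP2 and TIMP1 lower and MMP10, MMP15 and TIMP2 higher. Of all genes tested, 43.3% passed, 21.7% higher and 21.6% lower. MMP2 had 82.9 and 123 CPM in the controls and 2.13 and 3.57 CPM with OA, a log2 fold change of -4.82 ± 0.36 (adjusted p = 1.6e-06). TIMP1 had 1735 and 1979 CPM against 653 and 646 CPM (-1.17 ± 0.38, adjusted p = 0.0224). Its call was lost when any 1 of the 4 libraries was left out (adjusted p 0.0645 without OA control replicate 1, 0.082 without OA control replicate 2, 0.1 without OA replicate 1 and 0.105 without OA replicate 2).

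The epithelial enzymes MMP10 and MMP15 and TIMP2 rose. MMP15 had 27.7 and 26.5 CPM in the controls and 59.0 and 53.9 CPM with OA (log2 fold change 1.40 ± 0.27, adjusted p = 0.00115). TIMP2 had 126 and 140 CPM against 268 and 249 CPM (1.30 ± 0.18, adjusted p = 1.1e-04). MMP10 had 4.55 and 9.06 CPM against 9.66 and 15.9 CPM (1.27 ± 0.34, adjusted p = 0.00868), a call that was lost without OA control replicate 1 (0.91, adjusted p = 0.0918) or OA replicate 2 (0.88, adjusted p = 0.1). Within EPCAM-positive cells MMP10 had 5.44 and 16.34 CPM in the controls and 9.58 and 16.29 CPM with OA, groups that overlap, and did not pass (0.54 ± 0.46, adjusted p = 0.381). In whole libraries MMP7 had 170 and 130 CPM against 45.5 and 45.8 CPM and did not pass (-1.39 ± 0.65, adjusted p = 0.103) except without a filter on low counts (-1.40, adjusted p = 1.6e-06).

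Mesenchymal cells were few in the OA libraries. COL1A2/COL3A1-positive cells made up 36.4% ± 1.53 of OA control cells and 1.56% ± 0.540 of OA cells (SD, n = 2; exact permutation test, two-sided p = 0.33, the smallest possible). The 10 mesenchymal markers summed to 3066 to 5040 CPM in the controls and 127.6 to 171.9 CPM with OA. With 60 and 38 such cells in the OA libraries, the collagen class was not tested. Hepatocyte markers summed to 8480 to 11300 CPM in the controls and 14960 to 17000 CPM with OA.

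Within EPCAM-positive cells 7 of the 10 members passed with OA, where 36.0% of 17526 genes did (19.1% higher and 16.8% lower): MMP1, MMP2, MMP7 and MMP9 fell and MMP15, TIMP2 and TIMP3 rose. MMP1 had 542 and 636 CPM in the controls and 265 and 233 CPM with OA (log2 fold change -1.0 ± 0.24, adjusted p = 0.0052). MMP7 had 230 and 278 CPM against 47.4 and 47 CPM (-2.19 ± 0.69, adjusted p = 0.0237). TIMP3 had 22.6 and 18.1 CPM against 42.0 and 48.4 CPM (1.37 ± 0.35, adjusted p = 0.00837). TIMP2 had 99.9 and 94.2 CPM against 276 and 251 CPM (1.68 ± 0.20, adjusted p = 5.1e-05).

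MMP2 fell in EPCAM-positive cells too, from 9.89 and 12.6 CPM to 0.620 and 0.576 CPM (log2 fold change -3.97 ± 0.33, adjusted p = 4.1e-06), while the mesenchymal markers summed there to 102.1 to 121.4 CPM in the controls and 49.1 to 69.8 CPM with OA. Of 8 such markers tested 5 fell: COL6A3 (log2 fold change -2.26), PDGFRA (-3.09), TAGLN (-1.54), POSTN (-6.57) and COL1A1 (-2.50). LUM rose (2.74), from 168 and 62 UMIs in the controls to 2326 and 1131 UMIs with OA. COL1A1 had 255 and 270 UMIs with OA, so LUM weighs heavily in the OA sum. Of 7 hepatocyte markers tested in these cells 5 rose and 1 fell, with a median log2 fold change of 2.31, while their summed level was 15800 to 16510 CPM in the controls and 15310 to 17650 CPM with OA. The part of both lists in the members' changes was not tested. TIMP1 did not pass in these cells (1165 and 1007 CPM against 663 and 596 CPM, -0.56 ± 0.34, adjusted p = 0.223). The MMP2 and TIMP2 calls held without any 1 library. The MMP7 call was lost without each of the 4 libraries in turn (adjusted p 0.058 without OA control replicate 1, 0.0736 without OA control replicate 2, 0.114 without OA replicate 1 and 0.106 without OA replicate 2). MMP1 lost its call without OA replicate 2 (-0.87, adjusted p = 0.0632) and TIMP3 without OA control replicate 2 (1.15, adjusted p = 0.0898). MMP15 (0.86 ± 0.22, adjusted p = 0.00793) lost its call without OA control replicate 1 (adjusted p = 0.058) or OA replicate 1 (0.0734), and MMP9 (-2.06 ± 0.68, adjusted p = 0.0295) without OA control replicate 2 (0.189) or OA replicate 1 (0.206), or with cells classed by the greater UMI count (-1.17, adjusted p = 0.196). MMP14 passed only without a filter on low counts (0.87, adjusted p = 0.00459).

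**Figure D4:**
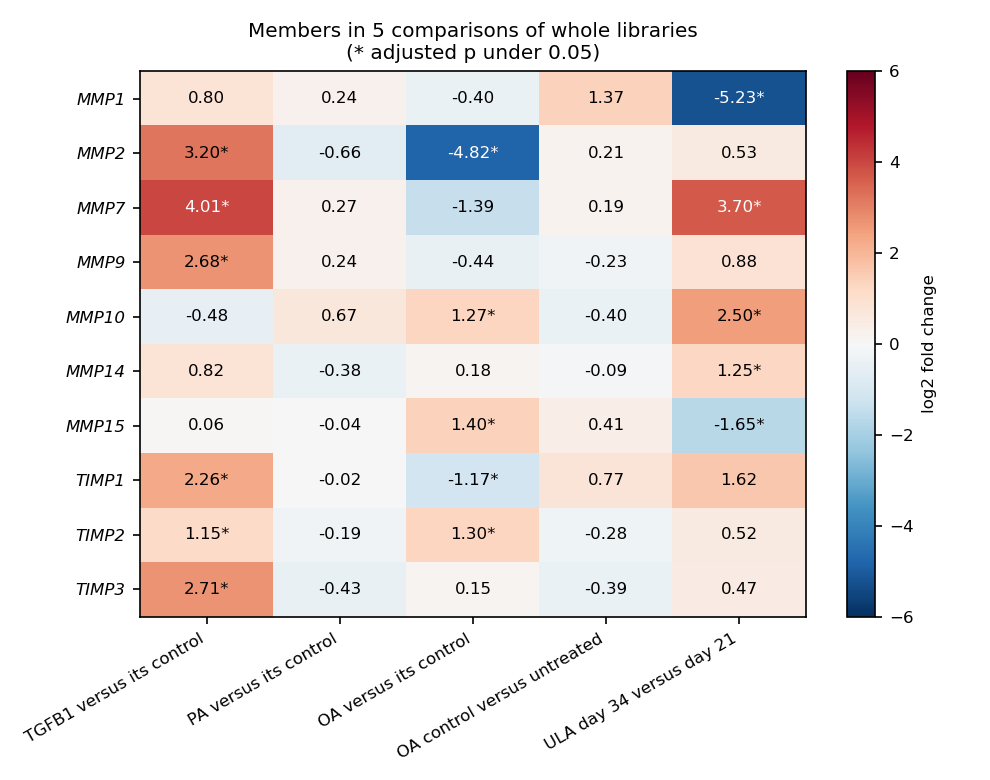
Log2 fold change of the 10 members in 5 comparisons of whole libraries, coloured from -6 to 6; an asterisk marks an adjusted p under 0.05. TGFB1 has 6 asterisks, all positive, PA and the OA control have none, and OA and ULA day 34 have 5 each in both directions.

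The OS groups that received no agent also differed from each other in this family. A joint test over the untreated, TGFB1 control, PA control and OA control groups passed for 9 of 10 members, where 49.8% of 19366 genes passed. MMP1 had 17.6 and 19.6 CPM in the TGFB1 control, 114 and 232 CPM in untreated organoids, 227 and 309 CPM in the PA control and 455 and 364 CPM in the OA control (adjusted p = 1.1e-05). MMP2 had 12.0 and 15.4 CPM in the TGFB1 control, 28.5 and 40.5 CPM in the PA control and 79.8 to 123 CPM in the other groups (adjusted p = 4.8e-05). MMP14 was the member that did not pass (adjusted p = 0.153), though it did without TGFB1 control replicate 1 (adjusted p = 0.0321) or a filter on low counts (0.0336). The MMP7 call (adjusted p = 0.0288) was lost without TGFB1 control replicate 1 (0.203) or PA control replicate 1 (0.0543). The mesenchymal share moved with MMP2, at 4.24% ± 0.460 in the TGFB1 control, 8.60% ± 2.05 in the PA control, 34.5% ± 6.75 in untreated libraries and 36.4% ± 1.53 in the OA control. The gut epithelial markers summed to 374.2 to 398.9 CPM in the TGFB1 control, where MMP1 was low, to 678.7 to 954.4 CPM in the PA control and to 939.2 to 2455 CPM in the other groups. The hepatocyte markers summed to 2569 to 3851 CPM in the TGFB1 control and to 8480 to 21970 CPM in the others. The part of these cell types was not tested. The untreated and OA control libraries were made with software version 6.0.2, per the file headers. The headers of the TGFB1 and PA controls did not name that version, and they were taken as 3.0.2 from the submitters' processing notes. Between those 2 sets version and group cannot be told apart, and the part of the version was not tested. Each agent is compared only with its own control.

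The OA control, which also serves as the reference for OA, had no member past the threshold against untreated organoids by edgeR, where 0.573% of 19366 genes passed (0.0826% higher and 0.491% lower; 2822 genes and 1 member at an unadjusted p under 0.05). MMP1 came nearest, with 114 and 232 CPM in the untreated libraries against 455 and 364 CPM in those of the OA control (log2 fold change 1.37 ± 0.33, adjusted p = 0.0794). It passed without untreated replicate 2 (2.07, adjusted p = 0.0265), without a filter on low counts (1.39, adjusted p = 1.0e-04) and by DESeq2 (1.38, adjusted p = 0.00212). MMP7 varied widely between the untreated replicates (267 and 38.8 CPM), and both OA control libraries (170 and 130 CPM) lay between them.

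From day 21 to day 34 of ULA culture MMP1 and MMP15 fell and MMP7, MMP10 and MMP14 rose. These 5 members passed, where 15.6% of 22261 genes did (8.43% higher and 7.19% lower), and 1 of the 5, MMP10, passed with each library left out in turn. With the replicate block 0 members passed (MMP10 at 2.73, adjusted p = 0.0999). That block fits day 21 replicate 3 by itself, since day 34 has no such number, and leaves little to estimate the spread from. The calls lost with it therefore say little of stability. Day 21 organoids alone were dissociated without the second round of trypsin, so day and digestion cannot be told apart in any ULA comparison of days. MMP1 had 369, 210 and 553 CPM at day 21 and 1.29 and 20.4 CPM at day 34, a log2 fold change of -5.23 ± 1.15 (adjusted p = 0.0252). MMP15 had 18.2, 12.8 and 13.9 CPM against 2.81 and 7.47 CPM (-1.65 ± 0.41, adjusted p = 0.0357), a call lost with the stricter cell filter (-1.33, adjusted p = 0.0823). MMP10 had 1.01, 0.709 and 1.27 CPM against 5.15 and 7.12 CPM (2.50 ± 0.32, adjusted p = 0.00457). The groups did not overlap for these genes.

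MMP14 had 10.9, 13.3 and 10.4 CPM at day 21 and 36.5 and 23.3 CPM at day 34 (log2 fold change 1.25 ± 0.23, adjusted p = 0.0134). MMP7 had 0.258, 0.539 and 0.729 CPM against 0.991 and 13.3 CPM (3.70 ± 0.95, adjusted p = 0.0399), and its size rests on day 34 replicate 2: without that library it was 0.83 (adjusted p = 0.21). Its call was also lost with the stricter cell filter (3.57, adjusted p = 0.0517). TIMP1 had 273, 430 and 272 CPM against 1714 and 462 CPM and did not pass (1.62 ± 0.50, adjusted p = 0.0665), though it did by DESeq2 (1.63, adjusted p = 0.00847) and without a filter on low counts (1.61, adjusted p = 2.2e-04). Without day 34 replicate 2, TIMP1 (2.26, adjusted p = 3.4e-05), MMP2 (0.87, adjusted p = 0.0147), TIMP2 (0.59, adjusted p = 0.0471) and TIMP3 (0.59, adjusted p = 0.0402) passed, and without day 34 replicate 1 MMP9 did (1.08, adjusted p = 0.0304).

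The day 21 libraries also decided calls. The MMP1 adjusted p was 0.0812, 0.0596 and 0.101 without day 21 replicate 1, 2 and 3, that of MMP15 was 0.135, 0.0842 and 0.118, and that of MMP7 0.147, 0.131 and 0.131. MMP14 lost its call without replicate 1 (0.0745) or replicate 3 (0.0798). EPCAM-positive cells made up 18.3%, 11.7% and 18.8% of the day 21 libraries and 0.532% and 6.01% of the day 34 libraries, and the hepatocyte markers summed to 1962 to 2162 CPM at day 21 and 81.9 to 754.6 CPM at day 34. Of the gut epithelial markers 3 of 4 fell, with sums of 154.1 to 216.1 CPM at day 21 and 3.50 to 34.7 CPM at day 34. The squamous markers TP63, KRT5 and KRT14 all passed as higher at day 34. The mesenchymal markers summed to 2109 to 2663 CPM at day 21 and 2721 to 4588 CPM at day 34. The part of these markers in the whole-library rises of MMP7, MMP10 and MMP14 was not tested. Within EPCAM-positive cells MMP1 had 842 to 1519 CPM at day 21 and 71.17 to 135.4 CPM at day 34. MMP15 had 31.45 to 41.43 CPM there at day 21 and 15.82 to 26.24 CPM at day 34. These values were not tested, because day 34 replicate 1 held too few such cells. The part of the other cell types in the MMP1 and MMP15 changes was not tested either.

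COL1A2/COL3A1-positive ULA cells could be compared, and there 6 of the 9 members tested rose at day 34, where 17.8% of 17356 genes passed (10.5% higher and 7.26% lower). MMP14 had 13.7, 15.7 and 12.2 CPM at day 21 and 47.9 and 37.2 CPM at day 34 (log2 fold change 1.49 ± 0.19, adjusted p = 0.00265). TIMP3 had 56.8, 56.0 and 53.9 CPM against 137 and 112 CPM (1.04 ± 0.16, adjusted p = 0.00532). Both calls held without any 1 library. MMP9 (2.11 ± 0.43, adjusted p = 0.0147), MMP10 (2.86 ± 0.77, adjusted p = 0.0377), TIMP1 (1.62 ± 0.43, adjusted p = 0.0361) and TIMP2 (0.68 ± 0.17, adjusted p = 0.0279) also passed. When cells were classed by the greater UMI count the calls of MMP9 (0.77, adjusted p = 0.241), TIMP1 (1.30, adjusted p = 0.0804), TIMP2 (0.51, adjusted p = 0.0924) and TIMP3 (0.54, adjusted p = 0.0512) were lost, and with the stricter cell filter that of MMP10 was (2.28, adjusted p = 0.0697).

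The calls of MMP9, MMP10, TIMP1 and TIMP2 were also lost when single libraries were left out. MMP9 lost its call without day 21 replicate 1 (adjusted p = 0.0781) or 3 (0.0726), and TIMP2 without day 21 replicate 1 (0.118), 2 (0.0546) or 3 (0.0668). MMP10 lost its call without any day 21 replicate (0.0937, 0.128 and 0.132) and fell to 1.08 without day 34 replicate 2 (0.246). TIMP1 lost its call without any day 21 replicate (0.135, 0.0857 and 0.132) and fell to 0.50 without day 34 replicate 1 (0.19), which had 2985 CPM against 888 CPM in replicate 2. MMP2 stayed between 128 and 169 CPM in all 5 libraries (0.06 ± 0.17, adjusted p = 0.846). MMP1 had 8.07, 4.44 and 9.24 CPM at day 21 and 0.596 and 4.76 CPM at day 34 (-1.61 ± 0.70, adjusted p = 0.148), and passed without day 34 replicate 2 (-3.68, adjusted p = 6.7e-06). The squamous markers in this class summed to 0.435 to 0.685 CPM at day 21 and 34.9 to 443.5 CPM at day 34. There 3 of 5 tested epithelial markers (summed 732.2 to 967.8 CPM at day 21 and 762.6 to 2762 CPM at day 34) and 3 of 4 ductal markers (22.7 to 29.4 CPM and 71.6 to 388.5 CPM) also passed as higher. The part of these markers in the result was not tested.

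Across the 9 groups, the highest group mean exceeded the lowest by 897.7 times for MMP7 (456.5 ± 226.9 CPM with TGFB1, 0.509 ± 0.237 CPM in day 21 ULA) and by 4.87 times for TIMP2 (258.5 ± 13.6 CPM with OA, 53.1 ± 7.85 CPM in day 21 ULA). TGFB1 gave the highest mean of MMP2, MMP7, MMP14, TIMP1 and TIMP3. For MMP2 its range (105 to 117.5 CPM) lay within that of the OA control (82.86 to 122.8 CPM). Of the neighbouring groups in the order of MMP2 means, 5 of 8 overlapped. For MMP14 the order ran from TGFB1 through PA control, untreated, OA control, PA, TGFB1 control and OA at 82.9 to 124 CPM, and 6 of 8 neighbouring groups in that order overlapped. For TIMP1 and TIMP3, 7 of 8 neighbours overlapped. For MMP1 the order was OA control (409.6 ± 64.8 CPM), day 21 ULA (377 ± 172), PA (303 ± 8.51), PA control (268 ± 58.0), OA (247 ± 13.5), untreated (174 ± 83.4), TGFB1 (28.5 ± 5.78), TGFB1 control (18.6 ± 1.42) and day 34 ULA (10.9 ± 13.5), with 5 of 8 neighbours overlapping. ULA and OS organoids were not tested against each other. They differ in culture, in day and in the genes counted, and the day 21 ULA organoids in digestion too. The ULA matrices list 58721 genes and the OS matrices 33538 or 36601. In ratios between ULA and OS groups these differences cannot be told apart.

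**Figure D5:**
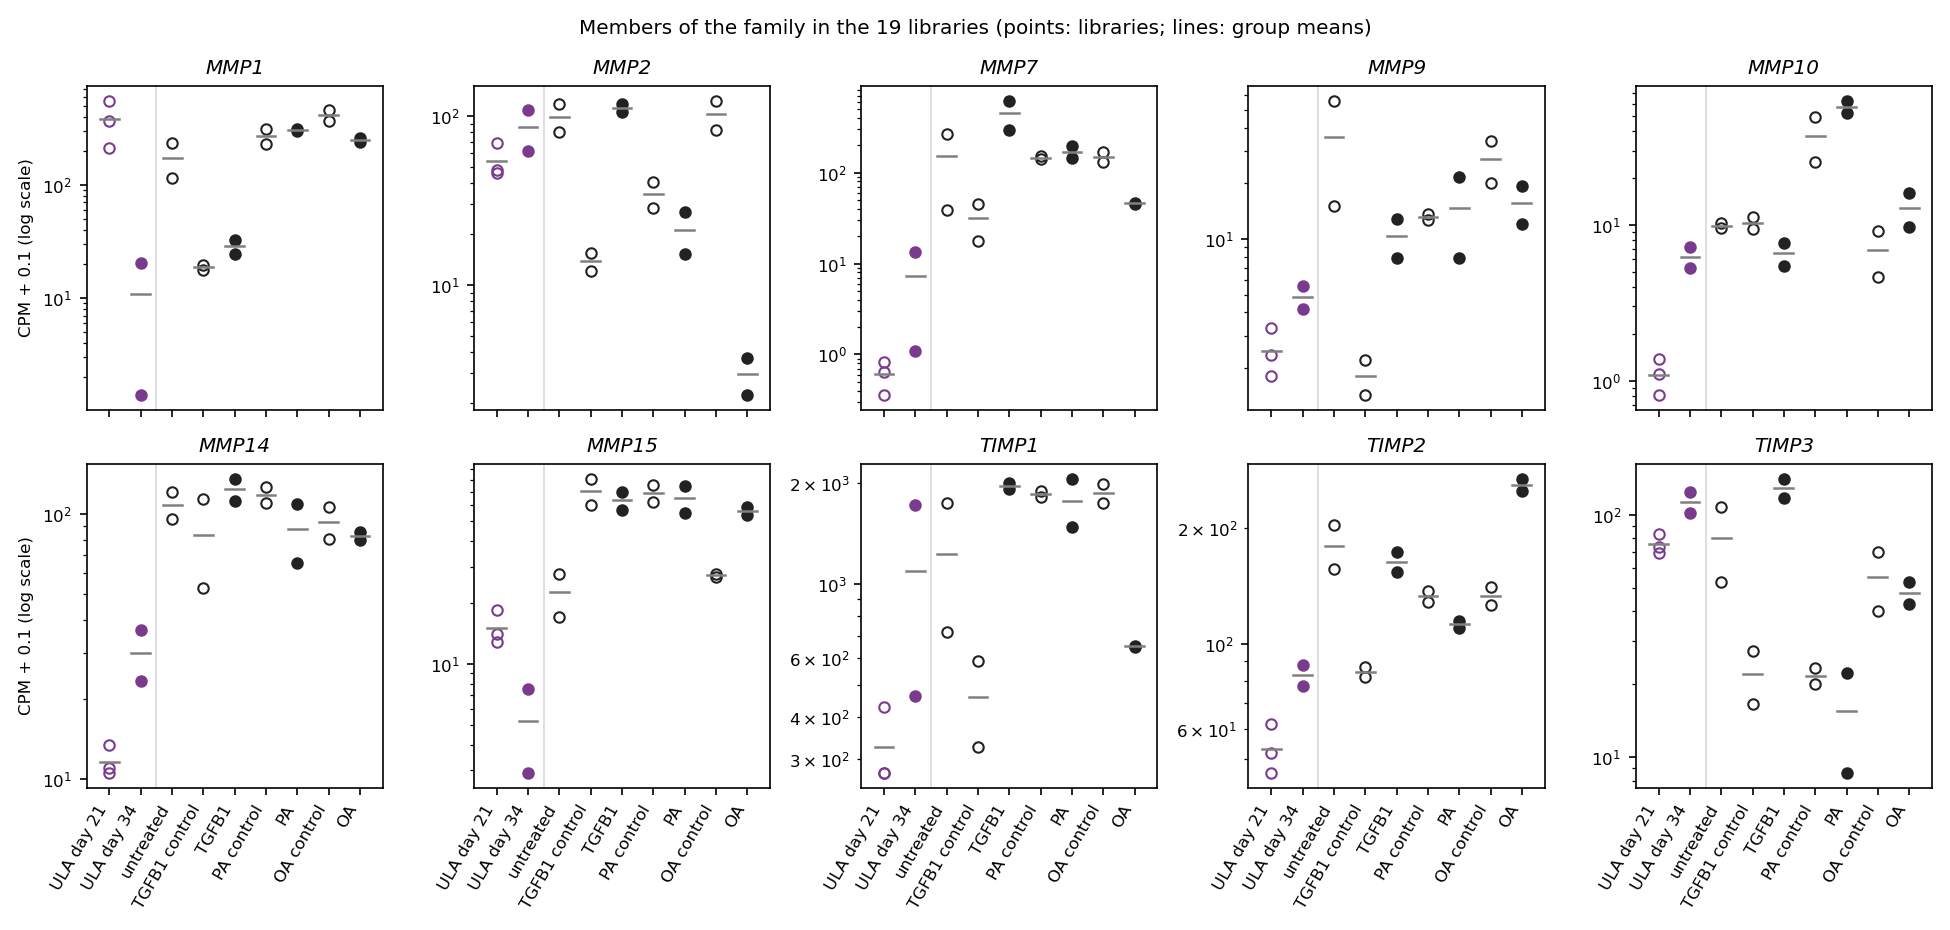
Level of each member in all 19 libraries, as CPM + 0.1 on a log axis; points are libraries (purple ULA, black OS; filled for day 34 and agents) and lines are group means. On this log axis MMP7 spans the widest range, from 0.258 CPM in a day 21 ULA library to 617 CPM in a TGFB1 library.

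The balance of summed TIMP to MMP counts was higher at day 34 than at day 21 in ULA organoids. The ratio of summed TIMP to summed MMP CPM was 0.909, 1.82 and 0.624 at day 21 and 12.1 and 4.61 at day 34. MMP1 made up most of the MMP sum at day 21, with 209.9 to 552.5 CPM of 308.3 to 627.9 CPM. At day 34 MMP1 had 1.295 to 20.45 CPM, beside MMP sums of 159.5 and 139 CPM. The part of MMP1 in the difference between the days was not tested. In OS organoids the ratio stayed between 1.70 and 3.39 in all 14 libraries, with 1.70 and 3.39 in the TGFB1 control libraries against 2.45 and 3.31 in the treated ones. Among the inhibitors, TIMP1 gave 91.3% and 90.4% of TIMP UMIs in the OA control libraries against 67.8% and 68.2% in the OA libraries. These ratios set transcript counts side by side, are not scaled for transcript length, and were not tested.

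Other genes of the pathway were counted from lists. Over all genes tested, 10.9% were higher and 11.3% lower with TGFB1. Of 15 tested MMPs and inhibitors outside the family, TGFB1 raised 6 and lowered 1: TIMP4, a further inhibitor, went from 0.353 ± 0.231 to 22.8 ± 0.868 CPM (SD, n = 2; log2 fold change 5.94 ± 0.47, adjusted p = 5.1e-06), and TFPI2, a protease inhibitor of the matrix, from 24.1 ± 6.91 to 202 ± 29.0 CPM (3.23 ± 0.40, adjusted p = 1.0e-04). MMP13, another collagenase, was at 0 UMIs in both controls and at 0.302 ± 0.247 CPM with TGFB1. Of 18 genes for the activation, docking and uptake of MMPs, TGFB1 raised 10 and lowered 1, among them PLAU, the urokinase protease that makes plasmin (8.30 ± 0.465 to 56.7 ± 14.9 CPM, log2 fold change 2.96 ± 0.37, adjusted p = 1.0e-04), and its receptor PLAUR (11.9 ± 1.79 to 73.5 ± 27.5 CPM, 2.80 ± 0.39, adjusted p = 2.5e-04). PLG, the plasmin precursor made by hepatocytes, fell from 1.01 ± 0.0976 CPM to 0 UMIs. Of 15 ADAM and ADAMTS proteases, 6 rose and none fell, including ADAM19 (3.88 ± 0.153 to 54.5 ± 3.89 CPM, 4.01 ± 0.43, adjusted p = 3.4e-05).

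With OA, 21.7% of all genes tested were higher and 21.6% lower, and 3 of the 15 other MMPs and inhibitors rose and 7 fell. MMP11, an enzyme of stromal cells, fell from 43.7 ± 20.0 to 3.26 ± 0.0546 CPM (log2 fold change -3.38 ± 0.34, adjusted p = 1.1e-05), and MMP23B from 36.2 ± 15.0 to 0.947 ± 0.317 CPM (-4.90 ± 0.45, adjusted p = 5.4e-06). Of the ADAM and ADAMTS genes 4 rose and 9 fell, beside the loss of mesenchymal markers given above. In the activation list 9 rose and 3 fell, led by LCN2, a lipocalin that binds MMP9 (5.64 ± 0.494 to 96.4 ± 24.3 CPM, 4.43 ± 0.71, adjusted p = 2.8e-04). PA changed 0 of these genes in any list of whole libraries.

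AP-1 and ETS factors, which bind promoters of several MMP genes, were counted as well. With TGFB1, where 10.9% of all genes were higher and 11.3% lower, 6 of 14 rose and 1 fell, with ELK3 (19.7 ± 5.10 to 78.2 ± 5.48 CPM, log2 fold change 2.21 ± 0.26, adjusted p = 7.1e-05) and ETS1 (12.4 ± 3.38 to 43.9 ± 4.10 CPM, 2.04 ± 0.24, adjusted p = 7.5e-05) in front. At day 34 of ULA culture, where 8.43% of all genes were higher and 7.19% lower, 5 of 14 rose and none fell, with ATF3 (20.6 ± 5.04 to 141 ± 57.8 CPM, 2.66 ± 0.31, adjusted p = 0.00316) and JUN (130 ± 42.0 to 617 ± 122 CPM, 2.13 ± 0.30, adjusted p = 0.00629) in front. These genes also respond to tissue dissociation, and day 34 organoids had the longer digestion. Day and digestion cannot be told apart in this comparison. With OA, where 21.7% of all genes were higher and 21.6% lower, 4 of 14 rose and 2 fell. ETS1 rose (36.4 ± 4.14 to 96.4 ± 9.33 CPM, 1.75 ± 0.24, adjusted p = 8.4e-05), and BATF3 (2.41 ± 0.283 to 0.399 ± 0.223 CPM, -2.25 ± 0.46, adjusted p = 0.00162) and FOSB (135 ± 22.7 to 34.6 ± 1.49 CPM, -1.62 ± 0.46, adjusted p = 0.0123) fell. BATF3 was among the genes that rose with TGFB1 (0.522 ± 0.29 to 1.71 ± 0.208 CPM, 1.72 ± 0.47, adjusted p = 0.0192).

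The genes whose levels were most like each member over the 19 libraries were ranked by Pearson r of log2(CPM + 1) among genes with a mean of at least 5 CPM. MMP1 was most like APOA1 (r = 0.862), DDC (0.862) and CDH17 (0.854), and MMP2 most like LRRC17 (0.956), LOXL2 (0.951) and SPARC (0.947). MMP7 was most like TAGLN2 (0.935), MMP9 like EPSTI1 (0.882), MMP10 like SPIB (0.902), MMP14 like NBEAL1 (0.949) and MMP15 like LLGL2 (0.963). TIMP1 was most like NNMT (0.895), TIMP2 like IL13RA1 (0.957) and TIMP3 like FHL2 (0.925). These values describe 19 libraries that share groups, cell makeup, depth and software, and no p is given for them.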

How the data were processed

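Droplet single-cell RNA was read in 19 libraries of 9 groups. The deposited matrices hold raw UMI counts per gene and barcode. Per the file headers those of the untreated, OA and OA control groups were made with Cell Ranger 6.0.2. The submitters' processing notes name bcl2fastq, Cell Ranger 3.0.2, Scanpy and GRCh38. The other matrices, whose headers did not name 6.0.2, were taken as 3.0.2. Cells needed 500 or more genes and no more than 20% mitochondrial UMIs. The UMIs of these cells were summed per library, or per library and class. CPM used the 32703 gene identifiers shared by all matrices. The tests used all listed genes of a culture. Sums were tested with edgeR 4.0.16 (R 4.3.3; TMM, filterByExpr, quasi-likelihood test, Benjamini-Hochberg adjusted p under 0.05), with the 14 OS libraries in 1 fit and ULA fitted separately. Class effects used a fit with the library as a block and only groups in which 2 libraries had 50 cells of both classes. That left out OA and day 34, a departure from the planned design. Shares of cells were compared with an exact permutation test.

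Doublets were kept in the main values. Their removal was an alternative, using the highest Scrublet scores at 0.8% per 1000 barcodes, because Scrublet's own threshold marked almost no cells in most libraries. Other alternatives were RLE size factors, DESeq2 1.42.0, no filter on low counts, a replicate block, stricter cells (1000 genes, 10% mitochondrial), 2 UMIs for a class, leaving out each library, and, added after seeing the data, classing double-positive cells by the greater UMI count. The members and gene lists were chosen with earlier results of these data known. Genes of other lists were named from the 3 with the largest change past the threshold per list and comparison. Not all of these are named. MMP3 and ADAMTS4 with OA and ADAMTS15 with TGFB1 had the largest changes of their lists and are left out. So are MMP12, THBS2 and ADAMTS15 at day 34 of ULA culture, and MMP12 in the OA control against untreated organoids. Some genes with smaller changes are left out too. On simulated counts for the TGFB1 comparison (19369 genes), 18.4% of 2-fold and 84.8% of 4-fold changes were recovered, and 3.77% of calls were false. For the class comparison 11% of calls were false. The simulated counts had a fixed dispersion and no effect shared by the classes of a library, so these rates need not hold for the data. The 3-UMI floor of a whole library was 0.0339 to 0.436 CPM, which covers counting error only.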

Additional observations from a re-analysis of the deposited data

Results flagged for a closer look

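For 4 members the TGFB1 effect differed between the classes of cells by the test of the difference itself (edgeR's quasi-likelihood test with Benjamini-Hochberg adjustment). On the log2 scale the effect in COL1A2/COL3A1-positive cells minus that in EPCAM-positive cells was -6.16 for MMP2, -4.35 for TIMP3, -3.02 for MMP9 and -0.95 for MMP14. These 4 calls held under every other setting that gave a value. Leaving out a library could not be tried for this difference, since the group would fall to 1 library.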

How the results depend on the processing

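Over all alternatives, single members lost a call 63 times, gained one 34 times and reversed 1 time. For the class comparisons, leaving out an OA or day 34 library returns the same fit, since those groups were not in it, and leaving out a library of another OS group removes the whole group, so these settings say little of stability. The reversal was MMP9 between the classes of ULA cells when cells with both kinds of UMI were classed by the greater count (0.74, against -0.47 on the log2 scale). Under that rule day 34 libraries and OA libraries also entered the class comparisons, so the rule and the groups compared changed together. The number of members called moved as follows. Without a filter on low counts it was 1 for the OA control against untreated organoids, 3 for TGFB1 in COL1A2/COL3A1-positive cells, and 1 each for PA in EPCAM-positive cells, for PA in COL1A2/COL3A1-positive cells and for the difference of the PA effect between them, where edgeR with the filter called 0. DESeq2 also called 1 for the OA control against untreated organoids. In whole ULA libraries it was 3 with the stricter cell filter, and in COL1A2/COL3A1-positive ULA cells 3 with the greater-count rule. Leaving out 1 library gave 3 to 4 members for OA in whole libraries, 0 to 1 for the OA control against untreated organoids, 1 to 8 for whole ULA libraries, 0 to 2 for TGFB1 in COL1A2/COL3A1-positive cells, 4 to 5 for OA in EPCAM-positive cells and 2 to 6 for COL1A2/COL3A1-positive ULA cells.

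The TGFB1 difference in the share of COL1A2/COL3A1-positive cells, 4.81 percentage points, was 3.25 with the stricter filter and 7.54 with the greater-count rule. That of OA, -34.8 points, was -32.3 with 2 UMIs for a class and -44.2 with the greater-count rule, and that of day 34 against day 21, -3.22 points, was 20.8 with the latter.

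The labels do not say what a replicate number shares, and the values below do not settle whether libraries were paired. In groups of 2 libraries the deviations mirror each other, so both numbers of an OS comparison give the same value. Same-numbered libraries had deviations that correlated at -0.222 for TGFB1, 0.0887 for PA, 0.0408 for OA, -0.44 for the OA control against untreated organoids and -0.165 and -0.269 for the 2 ULA numbers. With the replicate block the members called were 0 in whole ULA libraries (MMP10 at 2.73, adjusted p = 0.0999) and 3 in COL1A2/COL3A1-positive ULA cells. In the ULA fits the block takes up day 21 replicate 3 by itself and leaves little to estimate the spread from, so calls lost there say little of stability. The block also moved the count over all genes from 9 to 5 for PA, from 111 to 5 for the OA control against untreated organoids, from 3476 to 0 for whole ULA libraries, from 3 to 8 for TGFB1 in COL1A2/COL3A1-positive cells and from 3086 to 1582 for COL1A2/COL3A1-positive ULA cells.

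Other counts over all genes that moved by more than 1.5 times were as follows. Without a filter on low counts PA went from 9 to 162 in whole libraries, from 18 to 126 in EPCAM-positive cells, from 0 to 81 in COL1A2/COL3A1-positive cells and from 0 to 74 for the difference. The OA control against untreated organoids went from 111 to 523, TGFB1 in COL1A2/COL3A1-positive cells from 3 to 458 and COL1A2/COL3A1-positive ULA cells from 3086 to 4759. DESeq2 called 52 genes for PA and 712 for the OA control against untreated organoids, which RLE size factors put at 74. TGFB1 in COL1A2/COL3A1-positive cells had 1 call with RLE, 8 with stricter cells, 2 without doublets or with 2 UMIs for a class, and 95 with the greater-count rule. PA in that class had 4 with 2 UMIs and 1 with the greater-count rule, and the PA difference 3 without doublets and 8 with 2 UMIs. Leaving out 1 library gave 1704 to 5554 genes for TGFB1 (4295), 0 to 20 for PA, 5171 to 6570 for OA (8378), 0 to 164 for the OA control and 697 to 7166 for ULA (3476) in whole libraries. In EPCAM-positive cells it gave 1888 to 5459 for TGFB1 (4373), 0 to 28 for PA and 3259 to 4467 for OA (6303). In COL1A2/COL3A1-positive cells it gave 0 to 1125 for TGFB1, 0 to 6 for PA and 760 to 4684 for ULA. The cause of these movements was not tested. On simulated counts the test of the difference between the classes recovered 4% of 2-fold and 48% of 4-fold changes (16616 genes). Those counts had a fixed dispersion and no effect shared by the classes of a library, so the rates need not hold for the data. A member that did not pass the test may still differ. Leaving out a library could not be tried for differences between the classes.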
